A study of Mus musculus with 32 samples.

Results

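Memory T cells of the lymph node were compared with T cells of the same specificity taken from melanoma tumors. The comparison uses 8 of the 32 bulk RNA sequencing libraries of the study, 4 of lymph node memory cells and 4 of tumor cells, and each library was placed in its group by its label. All 8 are labelled as Pmel CD8 T cells, which carry a transgenic receptor for a melanocyte antigen, from C57BL/6 mice aged 16 weeks with melanoma-associated vitiligo, an autoimmune loss of pigment. The lymph node memory cells were taken as CD8+ Thy1.1+ cells 45 days after the tumor had been removed by surgery. The sources used here do not give the time at which tumor cells were taken or how the tumors were dissociated. Lymph nodes were dissociated mechanically. The labels do not say that the 4 libraries of a group came from separate animals. The spread behind each p-value is therefore that between libraries and may be technical. In the main fit it is pooled over all 8 groups of the study.

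CD8+ T cells that survive after an antigen is cleared can circulate, entering lymph nodes from the blood and leaving again along a gradient of sphingosine phosphate, or they can stay in a tissue as resident memory cells. Residency is marked by the integrin CD103, which binds E-cadherin on epithelial cells and is induced by TGF-beta, by CD69, and by low expression of the egress receptor S1pr1 and its activator Klf2. T cells that meet their antigen without end, as in a tumor, take up inhibitory receptors under the factor Tox, use glycolysis, and lose the factor Tcf7 and the interleukin-7 receptor that go with long life.

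Values are TPM, shares of each library that are corrected for gene length and sum to the same total, deposited without read counts, so depth and counting error are unknown. Between 19179 and 32843 genes lay above 0 in the lymph node memory libraries and between 29535 and 33644 in the tumor libraries. The T cell label held in both groups. The 16 T cell identity genes summed to 17837 to 37269 TPM in lymph node memory libraries and to 13829 to 34996 TPM in tumor libraries, and none of the 16 was called by limma's test, with 4 at an unadjusted p under 0.05, all higher in lymph node memory, and 3 called with the 2 groups fitted alone. Cd8b1, a chain of the CD8 coreceptor, averaged 1847 ± 461 TPM in lymph node memory and 765 ± 219 TPM in tumor (SD, n = 4 each), whereas Cd4 averaged 2.83 ± 1.72 TPM in lymph node memory and 1.23 ± 0.73 TPM in tumor. Lymph node memory replicate 4 and tumor replicate 4 had the lowest identity sums of their groups.

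RNA of other cells was present in both groups, and it differed between them. B cell markers summed to 1164, 3658, 1751 and 11350 TPM in the lymph node memory libraries, against 278, 201, 293 and 179.7 TPM in the tumor libraries, and 10 of the 13 were called higher. The dendritic cell list, through its class II MHC genes, summed to 477 to 3945 TPM in lymph node memory and 126 to 237 TPM in tumor. Melanocyte and melanoma markers summed to 6.27 to 16.4 TPM in lymph node memory and 431 to 1004 TPM in tumor, with 8 of the 10 called lower in lymph node memory. Mlana, a melanosome antigen, was at 0 in all 4 lymph node memory libraries. Hemoglobin and other erythroid genes summed to 3.27 to 619 TPM in lymph node memory and 3609 to 12466 TPM in tumor. Keratinocyte markers overlapped, at 18.9 to 108 TPM in lymph node memory and 49.0 to 308 TPM in tumor, as did myeloid markers, at 287 to 1151 TPM in lymph node memory and 460 to 567 TPM in tumor. Neutrophil markers summed to 11.02 to 61.6 TPM in lymph node memory and 83.9 to 344 TPM in tumor, without overlap. Stromal and endothelial markers summed to 15.2 to 82.9 TPM in lymph node memory and 105 to 505 TPM in tumor, also without overlap. None of 10 neutrophil markers was called, and 1 of 10 stromal and endothelial markers tested was called lower. With the 2 groups fitted alone, the counts were 4 lower and 1 higher, and 2 lower. The tumor sums were mostly S100a8 and S100a9 (means of 109 and 65.5 TPM) and Pecam1 (mean of 238 TPM). Some members, such as Mmp9 and Dcn, went the other way (means of 5.97 and 1.79 TPM against 0.965 and 0.735 TPM in tumor). Gamma delta T cell markers summed to 151 to 260 TPM in lymph node memory and 77.4 to 149.5 TPM in tumor. Of 5 tested, 2 were called higher, but at most 1 was whichever library was left out. None was called without a filter, with a pseudocount of 0.1 or after quantile normalization. The largest part of both sums was Tcrg.C2, at means of 94.4 TPM in lymph node memory and 81.5 TPM in tumor. The part of these cells in the differences between the groups was not tested, and their values are given beside the genes that move with them. In bulk RNA, fewer cells of a type and less RNA per cell cannot be told apart.

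**Figure D1:**
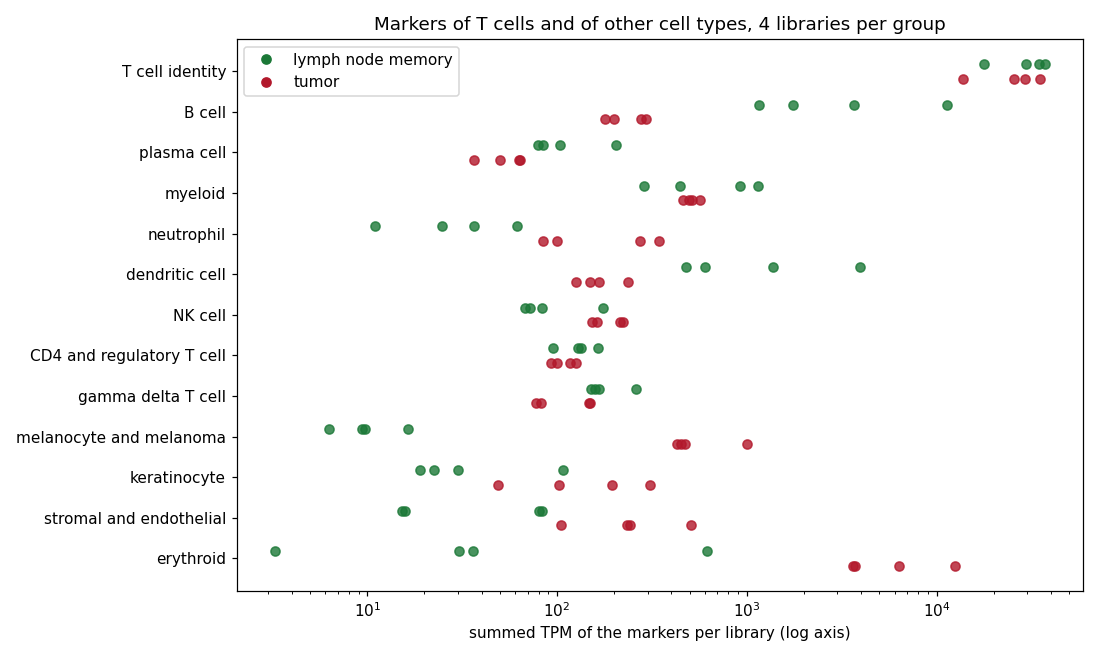
Summed TPM of marker genes of 13 cell types (rows, log axis) in each of the 4 lymph node memory libraries (green) and 4 tumor libraries (red). T cell identity sums overlap between the groups, B cell sums lie at 1164 TPM or more in every lymph node memory library and at 293 TPM or less in every tumor library, and melanocyte and erythroid sums lie higher in every tumor library.

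Of 19738 genes tested across the table, 999 were called higher (5.06%) and 521 lower (2.64%) in lymph node memory than in tumor cells at an adjusted p under 0.05. Differences are in log2(TPM + 1), lymph node memory minus tumor, with the standard error (SE) of the fit, and this scale understates changes of genes at low TPM. The median difference over all genes tested was 0.17, and 0.03 after quantile normalization, under which 53.5% of called genes were higher, against 65.7% without it. With a filter of 5 TPM the median was 0.38, and that of the 16 T cell identity genes in the main fit was 0.65. Fitted alone, the 2 groups gave 3899 higher and 1235 lower genes. Without 1 library the counts lay between 509 and 952 higher and between 306 and 547 lower, lowest without tumor replicate 4 (509 higher), lymph node memory replicate 1 (523 higher) and lymph node memory replicate 2 (306 lower). The groups did not overlap for 4740 genes that were higher in lymph node memory (24.0%) and 1305 that were lower (6.61%).

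Several residency genes were higher in the lymph node memory cells than in the tumor cells, led by Itgae, which encodes CD103 (GRCm38 chromosome 11, 73090583 to 73147446). Itgae had 478, 328, 319.9 and 176 TPM in the lymph node memory libraries, against 0.52, 0.94, 1.6 and 0.18 TPM in the tumor libraries. The gene was abundant in all 4 lymph node memory libraries and close to absent in all 4 tumor libraries. The difference was 7.47 ± 0.61 log2 (adjusted p = 1.16e-09), the largest of the increases named here. Itgb7, whose product pairs with CD103, had 845, 593, 554 and 329 TPM in lymph node memory and 33.1, 58.8, 36.6 and 28.1 TPM in tumor. Every lymph node memory library was above every tumor library, with a difference of 3.83 ± 0.52 (adjusted p = 1.2e-05). Itga1, the collagen-binding integrin chain CD49a, averaged 38.5 ± 17.5 TPM in lymph node memory and 3.51 ± 1.37 TPM in tumor (3.05 ± 0.66, adjusted p = 0.00349). Cd69, which removes the egress receptor from the cell surface, averaged 133 ± 24.6 TPM in lymph node memory and 35.6 ± 6.68 TPM in tumor (1.87 ± 0.46, adjusted p = 0.0109). Qpct, an enzyme that cyclizes the ends of peptides and is found in resident memory signatures, averaged 99.5 ± 31.1 TPM in lymph node memory and 2.56 ± 1.10 TPM in tumor (4.82 ± 0.65, adjusted p = 1.02e-05).

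Not every residency gene followed. Zfp683, which encodes the residency factor Hobit, had 75.0, 50.9, 32.8 and 28.4 TPM in lymph node memory and 15.2, 13.7, 18.6 and 9.51 TPM in tumor. The groups did not overlap, but the difference of 1.58 ± 0.56 missed the threshold (adjusted p = 0.0808). It passed with the 2 groups fitted alone (adjusted p = 0.00945). Cxcr6, a receptor for tissue CXCL16, was among the most abundant residency genes in both groups. It averaged 2212 ± 758 TPM in lymph node memory and 974 ± 321 TPM in tumor, with overlap (1.18 ± 0.48, adjusted p = 0.139). Cxcr6 was called with the 2 groups fitted alone (adjusted p = 0.0490), with weights per group (0.00302) and without libraries of low T cell identity (0.0350). Runx3, a factor of CD8 lineage and residency, averaged 46.4 ± 12.1 TPM in lymph node memory and 30.3 ± 8.97 TPM in tumor, with overlap (adjusted p = 0.528). On the other side, Bhlhe40, a factor that sustains mitochondrial metabolism in tumor-infiltrating cells, averaged 33.2 ± 16.5 TPM in lymph node memory and 165 ± 34.8 TPM in tumor (-2.40 ± 0.72, adjusted p = 0.0353), a call kept only without lymph node memory replicate 3 and otherwise at an adjusted p of up to 0.104. It was also lost without a filter (0.0695) and with a pseudocount of 0.1 (0.0671). Of the 39 residency genes tested, 10 were called higher (25.6%) and 2 lower (5.13%), against 5.06% and 2.64% of all genes tested. The list median was 0.96. Of 23 integrins and adhesion genes tested, 7 were called higher (30.4%) and none lower. The count was 3 without lymph node memory replicate 1 or 2 or tumor replicate 4, and 4 without lymph node memory replicate 3 or tumor replicate 1.

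**Figure D2:**
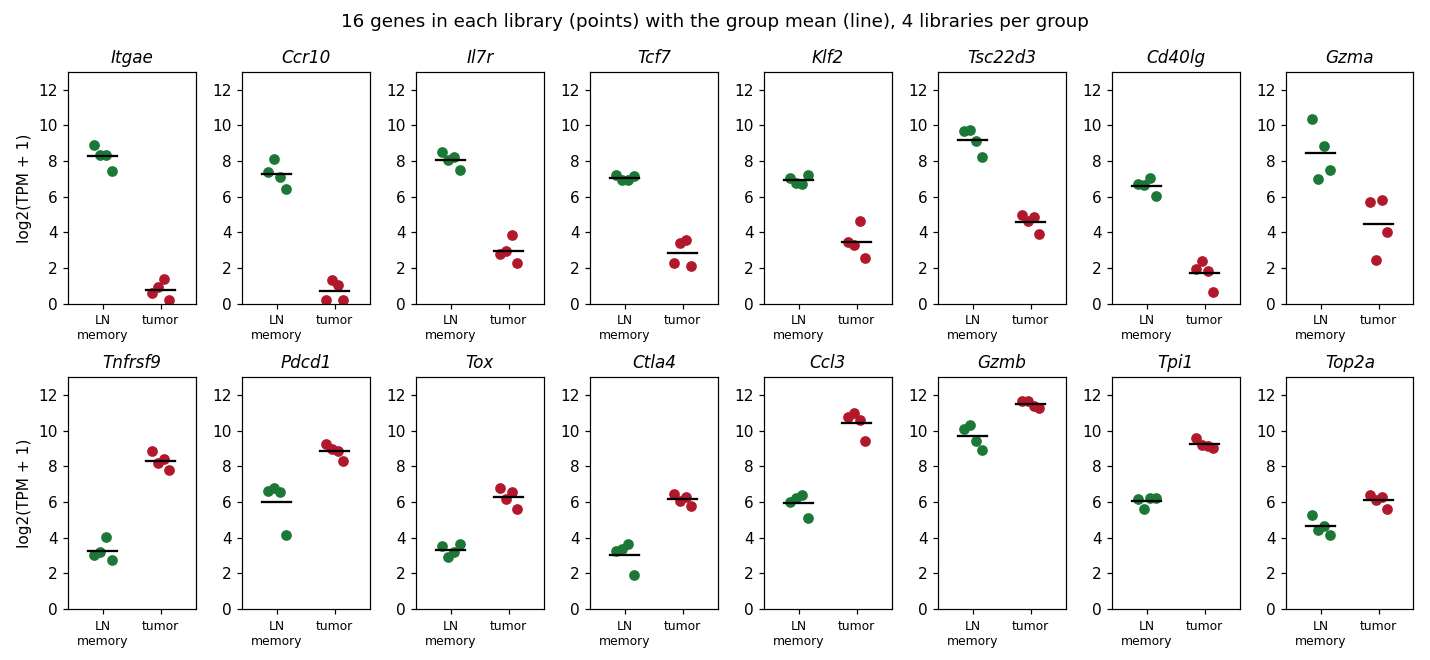
Expression of 16 genes in log2(TPM + 1) (vertical axes) in each lymph node memory library (green, left) and tumor library (red, right), with a line at the mean of the 4 libraries. In each panel the lymph node memory libraries lie all above or all below the tumor libraries, with the widest gap at Itgae, 176 to 478 TPM against 0.18 to 1.6 TPM.

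Of 20 chemokine receptors tested, 10 were called higher in lymph node memory (50%) and none lower, and the list median was 1.89. Ccr10, a receptor for a skin keratinocyte chemokine (chromosome 11, 101172997 to 101175443), had 169, 272, 139 and 85.4 TPM in the lymph node memory libraries, against 0.17, 1.54, 1.09 and 0.16 TPM in the tumor libraries. It was thus near 0 in all tumor libraries, and the difference was 6.56 ± 0.80 (adjusted p = 1.9e-06). Ccr8, another receptor of skin-homing T cells, averaged 214 ± 81.5 TPM in lymph node memory and 17.0 ± 4.44 TPM in tumor (3.52 ± 0.80, adjusted p = 0.00529, and 0.0527 with a pseudocount of 0.1). Cxcr3, which leads T cells to sites rich in interferon, averaged 464 ± 133 TPM in lymph node memory and 93.5 ± 25.2 TPM in tumor (2.29 ± 0.49, adjusted p = 0.00296). Cxcr4, Gpr183, Cx3cr1 and Ccr2 were higher as well, by 2.60, 2.35, 2.08 and 1.69 log2. Cx3cr1 lost its call without lymph node memory replicate 1 or tumor replicate 4 (adjusted p up to 0.0758), and Ccr2 kept its call only without lymph node memory replicate 4 (otherwise up to 0.184). The call of Ccr2 was lost too without a filter (0.0898), with a pseudocount of 0.1 (0.120) and after rescaling without mitochondrial and marker genes (0.0586).

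Some receptors in that count tracked the B cell markers across the lymph node memory libraries. Cxcr5, the receptor that leads cells to B cell follicles, had 6.02, 10.2, 5.51 and 27.0 TPM in lymph node memory and 0.08 to 0.27 TPM in tumor, and Ccr6 had 3.85, 10.8, 5.49 and 25.1 TPM in lymph node memory and 0.02 to 0.63 TPM in tumor. Both were highest in lymph node memory replicate 4 and next in replicate 2, the libraries with the highest B cell sums. Fcmr, the receptor for IgM, had 33.9, 95.5, 36.6 and 220 TPM in lymph node memory and 0, 0.41, 0.05 and 0.20 TPM in tumor (5.98 ± 1.09, adjusted p = 0.000639), again in the order of the B cell sums. The 3 genes kept their calls whichever of the 8 libraries was left out, with adjusted p of at most 0.0467, 0.0328 and 0.00401 for Cxcr5, Ccr6 and Fcmr.

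Some genes of circulation and egress were higher in the lymph node memory cells too. Klf2, the factor that turns on S1pr1, had 129, 107, 105 and 146 TPM in lymph node memory and 10.2, 8.65, 23.8 and 4.94 TPM in tumor. The groups were far apart, with a difference of 3.44 ± 0.46 (adjusted p = 9.33e-06). S1pr1 had 33.8, 21.7, 19.4 and 48.9 TPM in lymph node memory and 3.33, 3.73, 5.64 and 0.98 TPM in tumor (2.89 ± 0.88, adjusted p = 0.0399). Its call was lost whichever of the 8 libraries was left out, with adjusted p between 0.0533 and 0.142, and also without a filter (0.0781), with a pseudocount of 0.1 (0.0871) and after rescaling (0.0528). Ccr7, the lymph node homing receptor, had 26.3, 38.8, 22.8 and 110 TPM in lymph node memory and 13.2, 1.94, 7.59 and 5.24 TPM in tumor, a difference of 2.58 ± 1.24 that missed the threshold (adjusted p = 0.217) and passed with the 2 groups fitted alone (0.0137). Of 33 egress and circulation genes tested, 9 were called higher (27.3%) and 1 lower (3.03%), against 5.06% and 2.64% of all genes tested. Called higher were 4 without lymph node memory replicate 1 or without tumor replicate 4, and 6 without lymph node memory replicate 2. Rasgrp2, which activates integrins, and Fam65b, a regulator of T cell migration, were among them, at 2.48 ± 0.36 and 3.01 ± 0.70.

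Genes of long-lived and stem-like cells were among the clearest differences. Il7r, the chain that receives the survival cytokine IL-7 (chromosome 15, 9505788 to 9530176), had 357, 268, 303 and 182 TPM in lymph node memory and 5.88, 6.81, 13.5 and 3.91 TPM in tumor. Tcf7, whose product TCF1 keeps the capacity for self-renewal (chromosome 11, 52252371 to 52283014), had 149.8, 119.8, 119.7 and 140.3 TPM in lymph node memory and 3.84, 9.59, 11.1 and 3.28 TPM in tumor. Both genes were uniformly high in lymph node memory and low in tumor, by 5.10 ± 0.42 (adjusted p = 1.35e-09) and 4.21 ± 0.61 (adjusted p = 3.54e-05). Foxo1, which drives Il7r and Klf2, averaged 21.4 ± 1.92 TPM in lymph node memory and 5.92 ± 1.37 TPM in tumor (1.71 ± 0.45, adjusted p = 0.0164, and 0.0643 without tumor replicate 4). Id3, an inhibitor of DNA-binding factors kept in memory precursors, was higher by 2.94 ± 0.86 (adjusted p = 0.0308), with 12.1, 18.2, 21.4 and 77.1 TPM in lymph node memory and 1.64 to 3.69 TPM in tumor. It was highest in lymph node memory replicate 4, and its call held only without lymph node memory replicate 1 (otherwise adjusted p up to 0.0994) and was lost without a filter (0.0621). Of the 28 naive, central memory and stem-like genes tested, 10 were called higher (35.7%) and none lower. Without lymph node memory replicate 2 or 4, 6 were called higher, and without tumor replicate 4, 5 were. Lef1, a partner of TCF1, averaged 25.9 ± 22.1 TPM in lymph node memory and 9.15 ± 2.13 TPM in tumor and was not called (adjusted p = 0.503). Bcl2, which blocks cell death, averaged 19.7 ± 5.22 TPM in lymph node memory and 22 ± 6.4 TPM in tumor (-0.15 ± 0.61, adjusted p = 0.918), and of 26 genes of memory survival and cytokine receptors 1, Il7r, was called, against 11 higher and 5 lower with the 2 groups fitted alone. The median of that list was 0.42, and 0.00 after quantile normalization.

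Of 21 TGF-beta response genes tested, 10 were called higher in lymph node memory (47.6%) and 3 lower (14.3%), with a list median of 1.49, and Itgae, Cdh1 and Cd101 belong to this list and to the residency list. Tgfbr3, the coreceptor betaglycan, had 26.4, 14.8, 12.1 and 8.06 TPM in lymph node memory and 0.34, 0.56, 0.91 and 0.48 TPM in tumor (3.27 ± 0.45, adjusted p = 1.29e-05). The feedback inhibitors Ski and Smad7 averaged 20.4 ± 7.73 and 11.5 ± 2.22 TPM in lymph node memory, against 2.57 ± 0.54 and 3.15 ± 0.89 TPM in tumor, with differences of 2.52 ± 0.49 and 1.6 ± 0.36. Smad3, a transducer of the signal, averaged 5.49 ± 0.84 TPM in lymph node memory and 0.62 ± 0.48 TPM in tumor (2.04 ± 0.50, adjusted p = 0.0106). The receptor chains themselves were not called, with Tgfbr1 at 0.95 ± 0.44 (adjusted p = 0.203) and Tgfbr2 at 1.05 ± 0.68 (adjusted p = 0.386). The 3 members that were lower, Rgs16, Ctla4 and Bhlhe40, are also genes of activated or exhausted cells.

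Cytokine and chemokine genes were called in both directions. Cd40lg, the helper ligand that licenses dendritic cells and B cells (chromosome X, 57212143 to 57224042), had 104, 100.2, 131 and 65.5 TPM in lymph node memory and 2.85, 4.32, 2.56 and 0.57 TPM in tumor. Il2, the T cell growth factor, had 47.1, 56.6, 49.4 and 31.2 TPM in lymph node memory and 4.05, 2.77, 8.35 and 1.14 TPM in tumor. No tumor library reached the lowest lymph node memory library in either gene, and the differences were 4.91 ± 0.42 (adjusted p = 3.51e-09) and 3.38 ± 0.69 (adjusted p = 0.00201). Cd40lg is also a marker of CD4 T cells, whose defining gene Cd4 averaged 2.83 TPM in lymph node memory and 1.23 TPM in tumor. Of 7 CD4 and regulatory T cell markers tested, Cd40lg among them, 2 were called higher and 1 lower. Foxp3 averaged 1.825 TPM in lymph node memory and 0.165 TPM in tumor, and Zbtb7b 4.43 and 1.99 TPM. Ctla4, Ikzf2 and Il2ra had lower means in lymph node memory. The part of CD4 T cells in the Cd40lg difference was not tested. Ltb, a chain of lymphotoxin, and Tnfsf14, the ligand LIGHT, were also called higher. Ltb averaged 1561 ± 219 TPM in lymph node memory and 534 ± 171 TPM in tumor (1.6 ± 0.45, adjusted p = 0.0248), and lost its call without lymph node memory replicate 1, 2 or 3 or tumor replicate 2 or 4 (adjusted p up to 0.116). Tnfsf14 averaged 24.3 ± 6.76 TPM in lymph node memory and 3.98 ± 3.76 TPM in tumor (2.59 ± 0.57, adjusted p = 0.00419). The inflammatory chemokine Ccl3 (chromosome 11, 83647844 to 83649355) had 62.5, 72.4, 83.2 and 33.8 TPM in lymph node memory and 1758, 2046, 1547 and 692 TPM in tumor, with every tumor library above every lymph node memory library (-4.53 ± 0.82, adjusted p = 0.000586). Its neighbor in function Ccl4 averaged 720 ± 263 TPM in lymph node memory and 2706 ± 1051 TPM in tumor (-1.88 ± 0.53, adjusted p = 0.0248), and lost its call without lymph node memory replicate 1 or 4 or tumor replicate 1, 2 or 3 (adjusted p up to 0.0876). Spp1, the matrix cytokine osteopontin, had 3.88, 3.07, 31.7 and 0.23 TPM in lymph node memory and 156, 76.04, 53.2 and 49.4 TPM in tumor, without overlap (-3.83 ± 1.001, adjusted p = 0.0155). It lost its call without lymph node memory replicate 2 or 4 or tumor replicate 1 (adjusted p up to 0.0624) and with a pseudocount of 0.1 (0.0654). Il21, a helper cytokine, was at 0.46 to 0.80 TPM in lymph node memory and 0.84 to 6.95 TPM in tumor (-1.02 ± 0.31, adjusted p = 0.0412), and kept its call only without tumor replicate 1 or 4 (otherwise adjusted p up to 0.226). The call of Il21 was also lost without a filter, with a filter of 5 TPM, with a pseudocount of 0.1, with the 2 groups fitted alone and after quantile normalization, with adjusted p between 0.0570 and 0.207. Ifng had 105.2, 84.96, 211 and 65.2 TPM in lymph node memory and 404, 438, 540.3 and 137 TPM in tumor. Tumor replicate 4 lay below lymph node memory replicate 3, so the groups overlapped, and the difference of -1.67 ± 0.59 was not called (adjusted p = 0.0776). It was called without that library (-2.11, adjusted p = 0.0410). Of 23 cytokine genes tested, 4 were called higher and 4 lower (17.4% each), with a list median of 0.23 that turned to -0.21 after quantile normalization. Those lower numbered 2 without lymph node memory replicate 1 or 2 or tumor replicate 1, 2 or 3, and 1 without lymph node memory replicate 4.

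The granzymes also divided. Gzma, a trypsin-like protease of cytotoxic granules (chromosome 13, 113093825 to 113100981), had 1335, 126, 451 and 181 TPM in lymph node memory and 50.3, 4.53, 55.6 and 15.01 TPM in tumor. Its lymph node memory values spread widely, yet all lay above all tumor values (3.93 ± 0.90, adjusted p = 0.00586). Gzmb, the protease that starts apoptosis in the target cell (chromosome 14, 56258838 to 56262260), had 1074, 1263, 685 and 488 TPM in lymph node memory and 3278, 3276, 2626 and 2441 TPM in tumor. It was abundant in both groups and higher in every tumor library (-1.81 ± 0.55, adjusted p = 0.0400), but the call was lost whichever library was left out, with adjusted p between 0.0509 and 0.104, and also without a filter (0.0759) and with a pseudocount of 0.1 (0.0568). Gzmc and Gzmf, granzymes of strongly stimulated mouse cells, were low in lymph node memory, at 2.23 to 5.47 and 0 to 1.4 TPM, and at 27.8 to 90.5 and 18.5 to 29.6 TPM in tumor (-3.39 ± 0.72 and -4.20 ± 0.28). With a pseudocount of 0.1 the call of Gzmc was lost (adjusted p = 0.0861). These granzymes belong to a cluster of similar genes, among which short reads can be assigned uncertainly. Prf1, the pore-forming protein, averaged 109.5 ± 42.9 TPM in lymph node memory and 371 ± 100.1 TPM in tumor and was not called (-1.79 ± 0.81, adjusted p = 0.187), although the groups did not overlap. It was called with the 2 groups fitted alone (adjusted p = 0.00512), with weights per group (0.000848), after quantile normalization (0.0286) and without libraries of low T cell identity (0.000416). Nkg7, a granule protein, and Tbx21, the factor T-bet, were at similar means in both groups, 3969 and 127 TPM in lymph node memory and 3550 and 124 TPM in tumor. Id2, a regulator of effector cells, averaged 3689 ± 1097 TPM in lymph node memory and 1145 ± 361 TPM in tumor (1.69 ± 0.44, adjusted p = 0.0158) and lost its call without lymph node memory replicate 1 or 3 or tumor replicate 4 (adjusted p up to 0.0791). Of 26 cytotoxic effector genes tested, 2 were called higher (7.69%) and 3 lower (11.5%), against 5.06% and 2.64% of all genes tested.

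Of 31 inhibitory receptors and exhaustion genes tested, 9 were called lower in lymph node memory (29.0%) and 2 higher (6.45%). Of all genes tested, 2.64% were called lower and 5.06% higher. The list median was -0.58. Tox, the factor that establishes exhaustion (chromosome 4, 6686353 to 6991557), had 10.6, 6.48, 8 and 11.7 TPM in lymph node memory and 109, 70.8, 93.0 and 48.6 TPM in tumor. Lag3, an inhibitory receptor for class II MHC, had 4.03, 3.63, 3.77 and 2.40 TPM in lymph node memory and 24.5, 23.4, 19.4 and 15.8 TPM in tumor. The groups were well apart in both genes, by -2.96 ± 0.61 (adjusted p = 0.00209) and -2.28 ± 0.33 (adjusted p = 3.58e-05). Pdcd1, which encodes PD-1 (chromosome 1, 94038305 to 94052553), had 95.5, 107, 92.6 and 16.7 TPM in lymph node memory and 601, 499.9, 472 and 315 TPM in tumor (-2.84 ± 0.76, adjusted p = 0.0175). It was thus still transcribed in lymph node memory, with replicate 4 well below the rest, and without that library the difference was -2.21 (adjusted p = 0.0743). Ctla4 had 8.37, 9.39, 11.3 and 2.77 TPM in lymph node memory and 87.7, 65.7, 77.8 and 53.8 TPM in tumor (-3.12 ± 0.58, adjusted p = 0.000827). Entpd1, the ectoenzyme CD39 of tumor-reactive cells, averaged 10.6 ± 7.11 TPM in lymph node memory and 63.6 ± 17.8 TPM in tumor (-2.61 ± 0.64, adjusted p = 0.0105).

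Havcr2 and Tigit, 2 further checkpoint receptors, missed the threshold, at -1.85 ± 0.74 (adjusted p = 0.131) and -2.0 ± 0.77 (adjusted p = 0.112), although neither overlapped between the groups. Both were called with the 2 groups fitted alone, with adjusted p of 0.0199 and 0.0145. The 2 members that were higher in lymph node memory were Cd101, at 79.4 ± 31.6 TPM in lymph node memory and 8.83 ± 2.64 TPM in tumor, and Nt5e, the ectoenzyme CD73, at 17.3 ± 4.11 TPM in lymph node memory and 3.03 ± 1.90 TPM in tumor. Among 16 costimulatory receptors, 2 were called lower (12.5%) and 1 higher (6.25%), against 2.64% and 5.06% of all genes tested. The list median was 0.59. Tnfrsf9, a receptor induced by antigen (chromosome 4, 150914562 to 150946102), had 7.20, 8.29, 15.6 and 5.74 TPM in lymph node memory and 463, 294, 335 and 223 TPM in tumor, so that even the lowest tumor library was far above the highest lymph node memory library (-5.05 ± 0.87, adjusted p = 0.000311). Tnfrsf4, which encodes OX40, averaged 11.1 ± 2.69 TPM in lymph node memory and 161 ± 48.2 TPM in tumor (-3.73 ± 0.78, adjusted p = 0.00265, and 0.0623 with a pseudocount of 0.1). Cd7, an immunoglobulin-family receptor of T and NK cells, was the 1 that was higher, at 372, 528, 339 and 320.4 TPM in lymph node memory and 60.1, 45.0, 62.9 and 10.3 TPM in tumor (3.34 ± 0.56, adjusted p = 0.000208). Cd28 and Cd27 were not called, with adjusted p of 0.651 and 0.540.

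**Figure D3:**
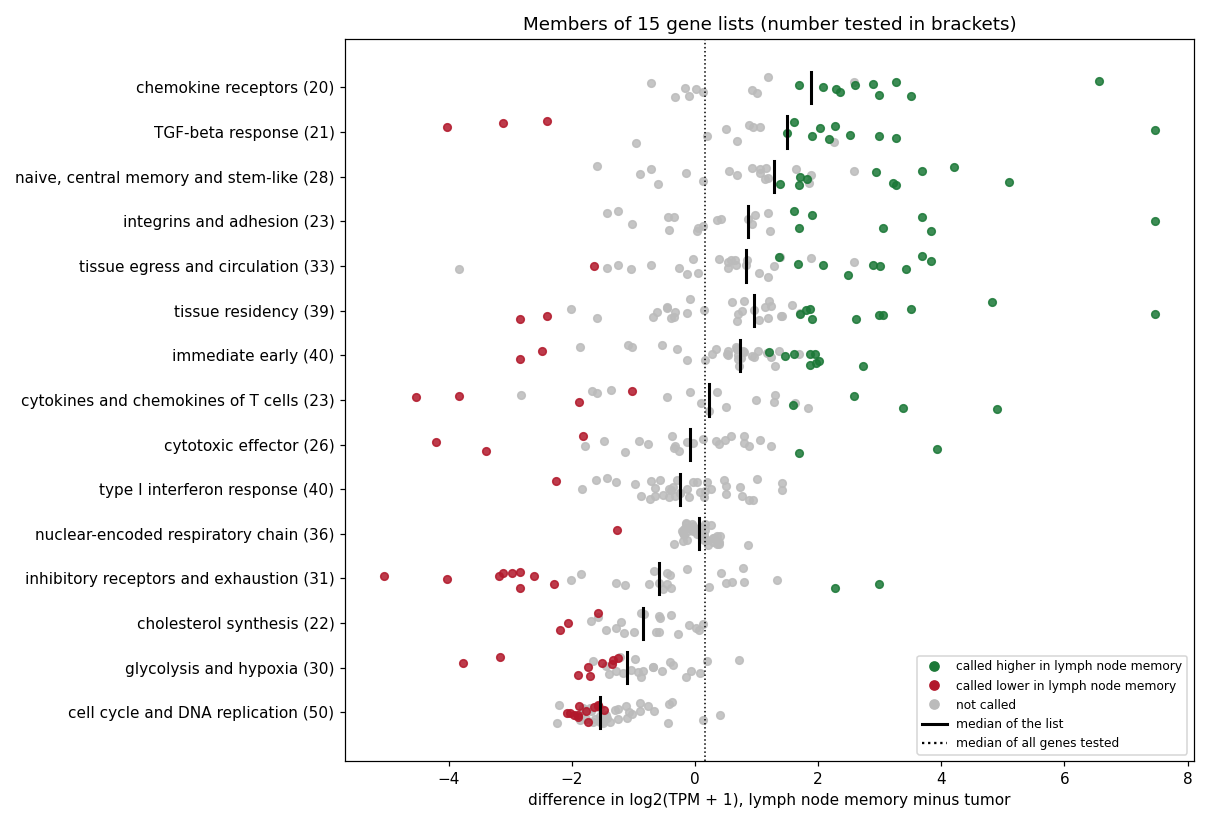
Difference in log2(TPM + 1), lymph node memory minus tumor (horizontal axis), for every tested member of 15 gene lists (rows, number tested in brackets). Green points were called higher and red points lower in lymph node memory, grey points were not called, black bars mark list medians and the dotted line marks the median of all genes at 0.17; chemokine receptors lie farthest right (median 1.89) and cell cycle genes farthest left (median -1.54).

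Of 50 cell cycle genes tested, 12 were called lower in lymph node memory (24.0%, against 2.64% of all genes tested) and none higher. The list median was -1.54. Without overlap between the groups, 38 of the 50 lay lower, against 6.61% of all genes tested. With the 2 groups fitted alone 43 of the 50 were called lower, 40 after quantile normalization, 7 without a filter and 5 with a pseudocount of 0.1, and the count was 16 without lymph node memory replicate 1, 3 without lymph node memory replicate 2, and 5 or 6 without any of the other 6 libraries. Cenpa, the centromere histone, had 84.5, 49.3, 50.2 and 41.7 TPM in lymph node memory and 332, 236, 203 and 185 TPM in tumor (-2.08 ± 0.41, adjusted p = 0.00149). Every tumor library was above every lymph node memory library, and lymph node memory replicate 1 was the highest of its group. Tk1, an enzyme of nucleotide salvage in S phase, averaged 28.2 ± 13.9 TPM in lymph node memory and 81.1 ± 13.4 TPM in tumor (-1.58 ± 0.36, adjusted p = 0.004995). Mki67, the usual proliferation marker, did not follow, at 9.20, 5.42, 5.74 and 4.94 TPM in lymph node memory and 9.76, 8.46, 8.73 and 6.52 TPM in tumor (-0.38 ± 0.44, adjusted p = 0.652), and neither did Pcna (-0.44 ± 0.41, adjusted p = 0.559).

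Promoters of 2 cell cycle genes are shown because they hold both elements that cell cycle promoters are known for, the CHR element TTTGAA and the CCAAT box. Cdk1, the mitotic kinase, had 69.2, 19.6, 38.8 and 23.9 TPM in lymph node memory and 124, 96.1, 103 and 87.5 TPM in tumor (-1.57 ± 0.48, adjusted p = 0.0404), a call kept only without lymph node memory replicate 1 and otherwise at an adjusted p of up to 0.160, and lost as well without a filter (0.0718) and with a pseudocount of 0.1 (0.0695). Top2a, which untangles DNA before division, had 38.3, 20.8, 24.0 and 16.8 TPM in lymph node memory and 84.6, 68.7, 77.7 and 47.3 TPM in tumor (-1.47 ± 0.40, adjusted p = 0.0193). In both genes all tumor libraries were above all lymph node memory libraries, though Top2a lost its call without lymph node memory replicate 2 or 4 or tumor replicate 1 or 3 (adjusted p up to 0.0649). The windows run from 250 bases before to 50 bases after the gene start on the gene's strand, from RefSeq on GRCm38.p6, at chr10:69352863-69353162 (minus strand) for Cdk1 and chr11:99024140-99024439 (minus strand) for Top2a. Capitals mark TTTGAA and CCAAT on either strand, where they read TTCAAA and ATTGG.
Cdk1: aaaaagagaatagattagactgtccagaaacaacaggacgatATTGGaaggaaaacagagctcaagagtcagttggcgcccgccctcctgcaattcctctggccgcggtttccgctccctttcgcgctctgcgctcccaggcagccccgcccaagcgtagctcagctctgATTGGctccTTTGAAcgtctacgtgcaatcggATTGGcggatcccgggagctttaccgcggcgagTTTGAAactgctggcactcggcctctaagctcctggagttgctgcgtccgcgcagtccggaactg
Top2a: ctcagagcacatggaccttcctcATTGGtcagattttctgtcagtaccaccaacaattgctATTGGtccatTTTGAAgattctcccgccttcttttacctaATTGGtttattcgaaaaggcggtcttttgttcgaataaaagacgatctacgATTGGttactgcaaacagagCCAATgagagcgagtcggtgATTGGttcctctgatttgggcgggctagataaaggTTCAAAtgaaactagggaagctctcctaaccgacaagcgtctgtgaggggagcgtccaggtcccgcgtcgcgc
Of 39 cell cycle genes with a window, 17 (43.6%) held TTTGAA and 29 (74.4%) held CCAAT, against 15.4% and 43.0% of the 10877 tested genes with a window. Among the 10 called lower that had a window, 6 held each. These are matches of letters, and no binding was measured.

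Of 30 glycolysis and hypoxia genes tested, 9 were called lower in lymph node memory (30.0%) and none higher, the list median was -1.10, and without any 1 library between 5 (tumor replicate 1) and 8 were called. Without lymph node memory replicate 2 or 4 or tumor replicate 2 the count was 6. It was 19 with the 2 groups fitted alone, 18 with weights per group, where 1 was also called higher, 17 after quantile normalization and 16 without libraries of low T cell identity. Tpi1, the glycolytic enzyme triosephosphate isomerase (chromosome 6, 124810586 to 124814296), had 71.9, 48.2, 74.3 and 73.6 TPM in lymph node memory and 757, 576, 567 and 515 TPM in tumor. Lymph node memory replicate 2 was below the other 3, no tumor library came near the lymph node memory libraries, and the difference was -3.16 ± 0.29 (adjusted p = 1.05e-08). Gapdh and Eno1, enzymes of the later steps of the pathway, averaged 771 ± 112 and 611 ± 102 TPM in lymph node memory, against 2587 ± 581 and 1555 ± 296 TPM in tumor, lower by 1.73 ± 0.33 and 1.34 ± 0.41 on the log2 scale. Aldoa, Pgk1 and Pgam1 were lower too, with differences of -1.25 to -1.70. Eno1 lost its call whichever library was left out (adjusted p from 0.0644 to 0.108), without a filter (0.0764) and with a pseudocount of 0.1 (0.0535), Pgam1 unless lymph node memory replicate 3 or tumor replicate 4 was (up to 0.0851), and Aldoa without tumor replicate 1 (0.0501). Pkm and Hk2, which missed the threshold, stood at -1.40 ± 0.48 and -1.44 ± 0.52 (adjusted p of 0.0692 and 0.0840). Bnip3, a mitophagy gene induced by hypoxia, averaged 22.1 ± 3.47 TPM in lymph node memory and 85.2 ± 16.8 TPM in tumor (-1.89 ± 0.41, adjusted p = 0.00348). Hif1a itself, which is governed mainly through the stability of its protein, averaged 54.9 ± 12.7 TPM in lymph node memory and 90.5 ± 28.2 TPM in tumor and was not called (adjusted p = 0.432).

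The enzyme and the exporter that turn pyruvate into lactate and release it have promoters with the core of the hypoxia response element, ACGTG, and are shown for that reason. Ldha, lactate dehydrogenase, had 648, 508, 566 and 455 TPM in lymph node memory and 1987, 1513, 1438 and 1309.5 TPM in tumor (-1.51 ± 0.36, adjusted p = 0.00852). Slc16a3, the lactate exporter MCT4, had 6.19, 3.46, 3.46 and 1.13 TPM in lymph node memory and 79.3, 67.9, 50.2 and 35.05 TPM in tumor (-3.76 ± 1.04, adjusted p = 0.0218). No library of one group reached the other in either gene. Slc16a3 lost its call without lymph node memory replicate 2 or 4 or tumor replicate 1 or 2, with adjusted p up to 0.0604, and with a pseudocount of 0.1 (0.107). The windows, again from RefSeq on GRCm38.p6, are chr7:46845554-46845853 (plus strand) for Ldha, the first of its 2 windows, and chr11:120948817-120949116 (plus strand) for Slc16a3. Capitals mark ACGTG and its other-strand form CACGT, which run together where they overlap. The other Ldha window, chr7:46846832-46847131, holds no match.
Ldha: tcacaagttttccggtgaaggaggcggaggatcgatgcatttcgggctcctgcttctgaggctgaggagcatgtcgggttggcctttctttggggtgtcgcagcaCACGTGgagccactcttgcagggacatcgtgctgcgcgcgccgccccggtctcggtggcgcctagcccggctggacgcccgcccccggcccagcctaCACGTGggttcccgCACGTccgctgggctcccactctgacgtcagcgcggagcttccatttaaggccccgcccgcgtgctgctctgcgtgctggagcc
Slc16a3: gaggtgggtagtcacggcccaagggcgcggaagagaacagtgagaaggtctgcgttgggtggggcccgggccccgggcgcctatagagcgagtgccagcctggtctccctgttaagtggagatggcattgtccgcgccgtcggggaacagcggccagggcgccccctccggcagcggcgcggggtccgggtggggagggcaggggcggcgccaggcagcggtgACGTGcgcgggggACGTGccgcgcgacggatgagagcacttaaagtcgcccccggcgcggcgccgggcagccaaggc
In at least 1 of a gene's windows, ACGTG on either strand was found in 20 of 26 glycolysis and hypoxia genes with a window (76.9%) and in 7 of the 9 called lower (77.8%), against 27.7% of tested genes and 21.8% of all 27025 genes with a window. A stretch that reads CACGTG matches on both strands. As above, only letters were matched, and no binding of any factor was measured.

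The list median of 36 nuclear genes of the respiratory chain tested was 0.06, turning to -0.09 after quantile normalization. Of the 36, 1 was called lower (2.78%), against 2.64% of all genes tested. That gene, Cycs, which encodes cytochrome c, had 17.9, 20.3, 23.6 and 24.2 TPM in lymph node memory and 66.2, 53.2, 48.8 and 44.9 TPM in tumor, with no overlap (-1.27 ± 0.32, adjusted p = 0.0112). Transcripts of the mitochondrial genome summed to 12725 to 48678 TPM in lymph node memory and 54277 to 148480 TPM in tumor, without overlap. Of 22 cholesterol synthesis genes, 13 lay lower without overlap, against 6.61% of all genes tested, with a list median of -0.84. Called lower were 3 (13.6%), against 2.64% of all genes tested. The count was 12 with the 2 groups fitted alone or with weights per group, 11 without libraries of low T cell identity, 8 after quantile normalization, 2 without a filter and 1 with a pseudocount of 0.1. Among those called were Idi1, an isomerase of the pathway, and Cyp51, a sterol demethylase, at -2.06 ± 0.60 and -1.57 ± 0.43. Idi1 lost its call unless lymph node memory replicate 4 was left out, and Cyp51 without lymph node memory replicate 2 or 4 or tumor replicate 1 or 3, with adjusted p up to 0.0951 and 0.0769. Idi1 also lost it without a filter (0.0573) and with a pseudocount of 0.1 (0.215). None of the 22 was called without lymph node memory replicate 2 or tumor replicate 3, and 1 was without lymph node memory replicate 3 or tumor replicate 1. Of 25 genes of lipid uptake and fatty acid oxidation, 1 was called lower (4%), against 2.64% of all genes tested.

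Genes of acute signalling moved in both directions. Of 40 immediate early genes, 9 were called higher (22.5%) and 2 lower (5%) in lymph node memory, against 5.06% and 2.64% of all genes tested. Btg2, an antiproliferative early gene, had 375, 319, 258 and 160.1 TPM in lymph node memory and 51.3, 39.0, 52.8 and 21.7 TPM in tumor (2.73 ± 0.41, adjusted p = 5.95e-05), with all lymph node memory libraries above all tumor libraries. Nr4a2, a nuclear receptor induced through the T cell receptor, had 3.79, 8, 22.04 and 2.09 TPM in lymph node memory and 78.7, 47.2, 67.7 and 29.0 TPM in tumor (-2.83 ± 0.69, adjusted p = 0.01005). Its relatives Nr4a1 and Nr4a3 were not called, at 0.79 ± 0.81 and 0.78 ± 0.47. The phosphatases of MAP kinases went opposite ways. Dusp2 averaged 900.2 ± 452 TPM in lymph node memory and 208 ± 79.2 TPM in tumor (2.02 ± 0.51, adjusted p = 0.0126), and Dusp4 averaged 1.73 ± 0.95 TPM in lymph node memory and 13.8 ± 2.92 TPM in tumor (-2.49 ± 0.69, adjusted p = 0.0233). The call of Dusp2 was lost without lymph node memory replicate 1 or 2 or tumor replicate 4, and that of Dusp4 without lymph node memory replicate 1 or 4 or tumor replicate 1 or 2, with adjusted p up to 0.0703 and 0.0663. With a pseudocount of 0.1 the call of Dusp4 was lost (0.105).

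Stress and interferon genes showed few calls. The inducible chaperones Hspa1a and Hspa1b, near-identical neighbors between which reads cannot be assigned with certainty, were the 2 called of 20 heat shock genes. Hspa1b had 1.61, 1.71, 102 and 1.81 TPM in lymph node memory and 150.3, 57.2, 128 and 158 TPM in tumor (-4.11 ± 1.13, adjusted p = 0.0209). The groups overlapped through lymph node memory replicate 3 alone, which also had the highest keratinocyte and erythroid sums of its group, at 108 and 619 TPM. Its call was kept only without lymph node memory replicate 3 or tumor replicate 2 (adjusted p from 0.00179 to 0.0874) and lost with a pseudocount of 0.1 (0.0668), whereas Hspa1a kept its call throughout. Of 40 type I interferon response genes 1 was called lower (2.5%), against 2.64% of all genes tested. That gene, Ifi27l2a, was at 627, 1358, 935 and 758 TPM in lymph node memory and 5974, 4686, 3914 and 2836 TPM in tumor (-2.25 ± 0.70, adjusted p = 0.0425). Although every tumor library was far above, its call was lost whichever library was left out, with adjusted p between 0.0611 and 0.126, and also without a filter (0.0832) and with a pseudocount of 0.1 (0.0568). No gene was called among 14 killer lectin receptors, 20 class I MHC and antigen processing genes or 24 genes of protein and amino acid stress by limma's test, of which 2, 4 and 3 had an unadjusted p under 0.05 and 2, 1 and 3 were called with the 2 groups fitted alone. Among 68 cytoplasmic ribosomal proteins only Rps27 was called (1.30 ± 0.41, adjusted p = 0.0476), and it kept its call only without tumor replicate 1 (adjusted p up to 0.159). The call was lost without a filter (0.0855), with a pseudocount of 0.1 (0.0589) and after rescaling (0.0651). The median of that list was 0.02, and -0.06 after quantile normalization.

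The 8 largest decreases by the naming rule were mostly genes of skin epithelium. Krtdap, a keratinocyte differentiation protein, had 0, 0, 35.6 and 0 TPM in lymph node memory and 575, 1626, 919 and 218 TPM in tumor (-8.07 ± 1.24, adjusted p = 7.53e-05). Sprr2a2, Dmkn, Klk7, Ly6g6c and Defb6, which epidermal cells are known to express, followed at -7.11, -6.15, -5.44, -5.39 and -4.64. Tumor replicate 2 was the highest library for each of these 6 genes and had the highest keratinocyte and melanocyte sums of the tumor group, 308 and 1004 TPM. Of the 11 keratinocyte markers, Krt17 and Perp were called lower in lymph node memory, at -3.28 and -3.14, and 9 were not called, with a list median of -0.95. Krt17 had 0.10 to 4.17 TPM in lymph node memory and 3.72 to 48.0 TPM in tumor, with overlap, and Krt5 had 0 to 9.90 TPM in lymph node memory and 0.43 to 3.75 TPM in tumor. The other 2 of the 8 were Tnfrsf9 and Nrgn, a calmodulin-binding protein best known in neurons, which had 5.56, 4.07, 11.5 and 2.88 TPM in lymph node memory and 405, 266, 203 and 191 TPM in tumor (-5.33 ± 0.61, adjusted p = 6.2e-07). The melanocyte sums of the tumor libraries, in the same order, were 431, 1004, 471 and 452 TPM. The source of the Nrgn RNA was not tested.

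Among the 8 largest increases, 2 further genes act in T cells. Trat1, an adaptor of the T cell receptor (chromosome 16, 48730774 to 48772021), had 342, 427, 414 and 236 TPM in lymph node memory and 8.38, 8.77, 16.0 and 3.87 TPM in tumor (5.22 ± 0.53, adjusted p = 7.97e-08). Tsc22d3, which encodes the glucocorticoid-induced protein GILZ (chromosome X, 140539528 to 140600659), had 817, 853, 557 and 296 TPM in lymph node memory and 30.0, 24.4, 28.5 and 13.9 TPM in tumor (4.59 ± 0.44, adjusted p = 3.57e-08). In both, the lowest lymph node memory library was far above the highest tumor library.

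Set among all 8 groups, several of these differences lay on the tumor side. Itgae averaged 325 ± 123 TPM in lymph node memory, 381 ± 207 in skin, 139 ± 71.7 in lung, 84.8 ± 9.63 for naive cells, 71.5 ± 12.2 for day 12 lymph node cells, 70.8 ± 48.4 in spleen, 40.9 ± 58.6 in liver and 0.81 ± 0.61 in tumor. Lymph node memory and skin overlapped, whereas each tumor library was below every one of the other 28 libraries. Of the 999 genes called higher, 41 had all 4 tumor libraries below all 28 others, which 0.208% of tested genes did, and among the named genes these were Itgae, Itgb7, Trat1, Tsc22d3 and Btg2. Tumor libraries were above all 28 others for 77 of the 521 genes called lower, against 0.431% of tested genes. Of the named genes these were Tox, Lag3, Tnfrsf9, Tnfrsf4, Nrgn, Ccl3, Gzmc, Ifi27l2a, Tpi1, Bnip3 and Cycs. Tox averaged 9.21 ± 2.41 TPM in lymph node memory and 80.5 ± 26.5 TPM in tumor, with 26.2 ± 2.91 TPM for naive cells and 19.2 ± 1.64 TPM for day 12 lymph node cells. These counts use the tumor and lymph node memory values of the contrast itself and are a description.

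Other genes put lymph node memory between groups. Pdcd1 averaged 78.1 ± 41.4 TPM there, 441 ± 276 TPM in skin, 50.5 ± 6.33 TPM in the day 12 lymph node and 472 ± 118 TPM in tumor, with skin and tumor overlapping. Klf2 averaged 122 ± 19.5 TPM in lymph node memory, below each library of naive cells (571 ± 54.3 TPM) and spleen (647 ± 111 TPM) and overlapping skin (65.0 ± 60.05 TPM). Gzma was at 523 ± 560 TPM in lymph node memory and at 519 ± 467 TPM in skin, 647 ± 105 TPM in the day 12 lymph node and 1738 ± 1524 TPM in lung, so that the tumor mean of 31.4 ± 25.4 TPM was below all but the naive mean of 4.72 ± 0.46 TPM. Birc5, a cell division gene, averaged 50.6 ± 32.2 TPM in lymph node memory and 189 ± 46.5 TPM in tumor, and both stood below the day 12 lymph node at 649 ± 45.9 TPM. Its call between the 2 groups held only without lymph node memory replicate 1 (otherwise adjusted p up to 0.118), and was lost without a filter (0.0600) and with a pseudocount of 0.1 (0.0518). Zfp683 was the 1 named gene with every lymph node memory library above all 28 others, as 0.106% of tested genes were, at 28.4 TPM or more against at most 26.2 TPM elsewhere, in a skin library.

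**Figure D4:**
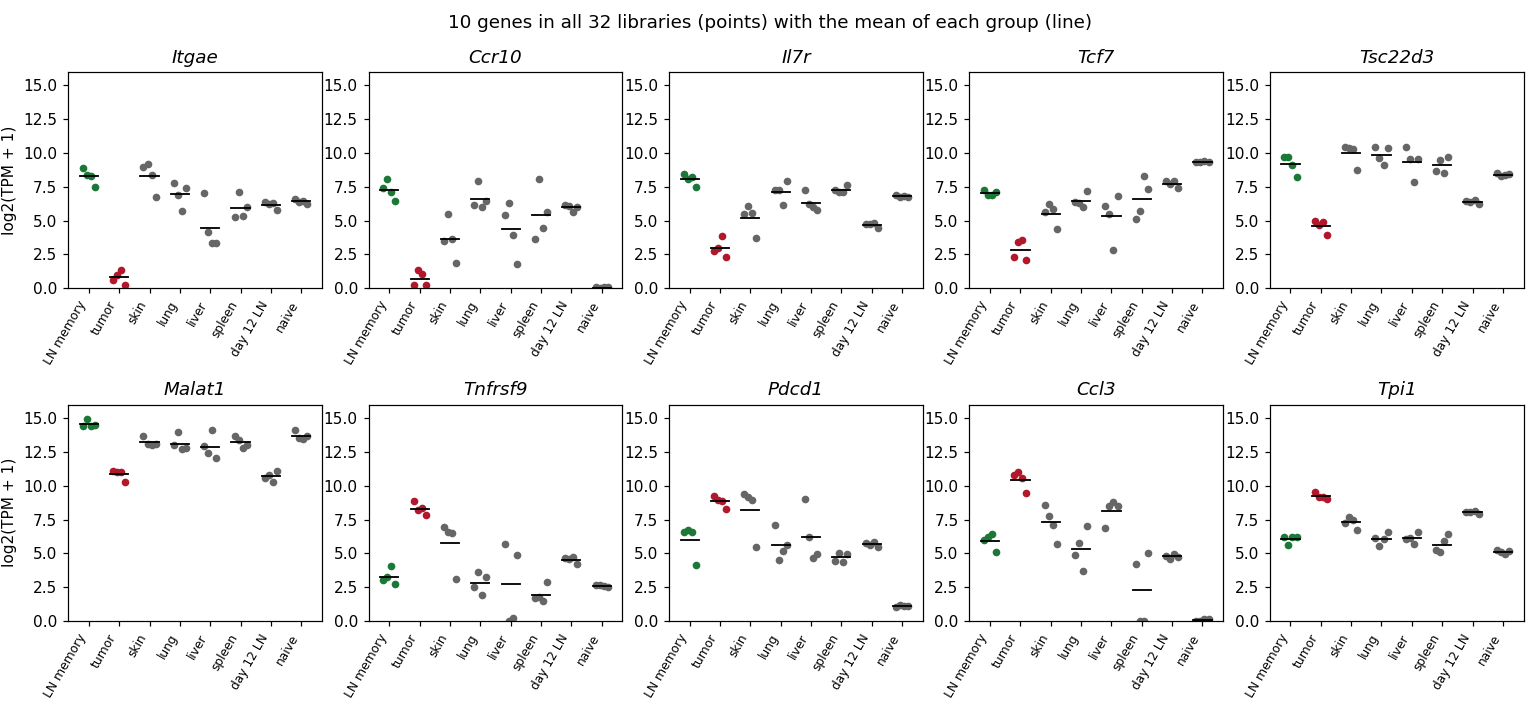
Expression of 10 genes in log2(TPM + 1) (vertical axes) in all 32 libraries (points) of the 8 groups, with a line at each group mean and lymph node memory (green) beside tumor (red). Itgae and Tsc22d3 are lowest in the 4 tumor libraries of all 32, Tnfrsf9, Ccl3 and Tpi1 are highest there, and Malat1 is high in lymph node memory, at 21836 TPM or more, and low in tumor and the day 12 lymph node.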

How the data were processed

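Bulk RNA was sequenced in 32 libraries of 8 groups of 4, and the 4 lymph node memory and 4 tumor libraries are reported. The authors deposited 1 table of natural log (ln) values of TPM + 1 for 46517 genes, which were turned back into TPM (the same sum in every library). Reads were aligned with Bowtie to mm10, per the submitters' processing notes; the sources used here do not give the counting tool, annotation or versions. Without counts, the branch of the design for normalized values was used. Values were taken as log2(TPM + 1), with a pseudocount of 1, for the 19738 genes at 1 TPM or more in at least 4 libraries. All 8 groups were fitted with limma 3.58.1 (R 4.3.3; 24 residual degrees of freedom), and p-values were adjusted by Benjamini-Hochberg over all genes tested, with a threshold of 0.05. The fit was run on simulated data, drawn as normal values with each gene's spread in each group. Genes varied independently there, so RNA of other cells and batches, which move genes together, were not covered.

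The groups, gene lists and named genes were chosen with earlier results of these data known. Named genes were 22 core genes, the 8 largest differences in each direction among genes that averaged 3 or more in log2 and did not overlap (predicted genes, segments of antigen receptors and markers of other cells left out, but not genes that T cells share, such as Cd40lg), and up to 4 called members of each list. In all, 737 of 739 list genes matched the table, 4 of them by synonym. Alternatives were no filter, a filter of 5 TPM, a pseudocount of 0.1, a fit of the 2 groups alone, weights per group, quantile normalization, rescaling without mitochondrial and marker genes, leaving out libraries of low T cell identity, a replicate block, and each library left out in turn. Tables and figures used Python 3.11.15, pandas 2.3.3, NumPy 2.4.6 and Matplotlib 3.10.9. Gene coordinates are GRCm38 and promoter windows are RefSeq's on GRCm38.p6. Some genes counted in the lists are not reported here by name.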

Additional observations from a re-analysis of the deposited data

Results flagged for a closer look

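In 172 tests of the 4 libraries of a group, over the named genes and the marker sums, 9 had 1 library far from the other 3 by Dixon's ratio, where chance gives about 1 in 20. In lymph node memory replicate 4, Pdcd1 was at 16.66 TPM, against 92.57 to 107.49 TPM in the other 3. Lymph node memory replicate 3 stood out in 5 genes. Krtdap was at 35.61 TPM and Sprr2a2 at 5.21 TPM there, and both were listed at 0 in the other 3 libraries. Dmkn was at 5.33 TPM in that library, against 0 to 0.19 TPM in the other 3. The chaperones Hspa1a and Hspa1b were at 54.81 and 102.47 TPM there, against 0 to 0.20 and 1.61 to 1.81 TPM. Tpi1 was low in lymph node memory replicate 2, at 48.17 TPM against 71.92 to 74.29 TPM. The gamma delta T cell marker sum was 259.64 TPM in lymph node memory replicate 1 and 150.97 to 165.47 TPM in the other 3. The melanocyte and melanoma marker sum was 1004.4 TPM in tumor replicate 2 and 430.8 to 470.78 TPM in the other 3 tumor libraries.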

How the results depend on the processing

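Lymph node memory had 1520 called genes against tumor, 999 higher and 521 lower. A filter of 5 TPM left 321 lower, and a pseudocount of 0.1 left 994 called, 623 of them higher. The 2 groups fitted alone gave 5134 called (3899 higher, 1235 lower), weights per group gave 5995 (4315 higher, 1680 lower), and leaving out libraries of low T cell identity, tumor replicate 4 among them, gave 3064 (2169 higher, 895 lower). Quantile normalization gave 793 lower. Without 1 library at a time, totals ran between 844 and 1499, higher counts between 509 and 952, and lower counts between 306 and 547. Of 64 called named genes, 46 kept their calls whichever library was left out, 47 with a pseudocount of 0.1, 56 without a filter and 62 after rescaling. None of the 73 named genes reversed under any alternative where either fit called it. The cause of these changes was not tested. With the replicate block, 1671 genes were called (1089 higher, 582 lower), 1493 of them among the 1520. Deviations of same-numbered libraries correlated at 0.353, 0.0637, -0.0821 and 0.517. Lymph node memory replicates 1 and 4 correlated best with their own number, and replicates 2 and 3 with tumor replicate 1. The labels do not say what the numbers mark, so the main fit has no block. Replicate 4 had the lowest T cell identity sum in lymph node memory, tumor, spleen, skin and liver. In naive, day 12 lymph node and lung it did not. It had the most genes above 0 in every group but naive and tumor. Whether replicate 4 marks a shared batch was not tested. Depth is unknown, so counting error at low TPM cannot be given.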

Other observations

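The genes below were chosen after their values were seen. The metallothioneins Mt1 and Mt2, which bind zinc and other metals, were lower in lymph node memory. Mt1 had 67.9, 48.9, 88.0 and 26.7 TPM in lymph node memory and 603, 469.6, 332 and 628 TPM in tumor (-3.19 ± 0.71, adjusted p = 0.00434). Mt2 had 16.7, 5.04, 11.1 and 5.73 TPM in lymph node memory and 187, 143, 99.8 and 213 TPM in tumor (-4.01 ± 0.75, adjusted p = 0.000806). Neither overlapped between the groups. Skin cells had high Mt1 as well, at 432 ± 206 TPM, and liver cells at 906 ± 1084 TPM. Plac8 averaged 48.7 ± 39.6 TPM in lymph node memory and 608 ± 260.0 TPM in tumor (-3.80 ± 0.51, adjusted p = 1.06e-05).

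Txnip, an inhibitor of glucose uptake, averaged 624 ± 185 TPM in lymph node memory and 64.5 ± 25.1 TPM in tumor, a difference of 3.30 ± 0.34 (adjusted p = 1.04e-07). Btg1, an antiproliferative relative of Btg2, averaged 564 ± 108 TPM in lymph node memory and 152 ± 53.5 TPM in tumor (1.96 ± 0.40, adjusted p = 0.00196). Malat1, a long noncoding RNA retained in the nucleus, had 21836, 32099, 22089 and 22573 TPM in lymph node memory and 2209, 2118, 2067 and 1258 TPM in tumor (3.70 ± 0.33, adjusted p = 8.51e-09). The groups lay closer for the mitochondrial transcript mt.Co1, which had 325, 757, 1136 and 2487 TPM in lymph node memory and 3529, 7727, 4812 and 2687 TPM in tumor (-2.25 ± 0.60, adjusted p = 0.0175). Whether RNA quality or the share of nuclear RNA differed between the groups was not tested.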
